A study of Mus musculus with 28 samples.

Results

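Transcripts of inflammation genes were compared between subcutaneous implants of tumor-bearing and of healthy mice at the earliest day of the study, 7 days after tumor inoculation. The comparison takes every sample that the labels place at this day, 3 tumor-bearing and 3 healthy, which is 6 of the 28 samples of the series. All 648 assays of the panel were read, and members were chosen by their labels, not by a measured value. The other 22 samples, 16 from day 14 and 6 from day 21, enter through the shared estimate of spread and the comparison between days.

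The implant is a microporous scaffold of polycaprolactone (PCL), a degradable polyester, which host cells fill and which the labels call a synthetic niche. The tumor-bearing mice were female BALB/c mice that carried the scaffold and received cells of 4T1, a carcinoma line of the mouse mammary gland. The healthy mice were female BALB/c mice that carried the scaffold and were tumor-free at analysis. The labels give the line as 4T1-luc2-tdTomato for the healthy mice too, so groups follow the condition at analysis, and neither mouse age nor the time of implantation was given. A single tumor line in a single strain is the model, and each sample is an implant of a mouse, with no label that shares an animal between samples. Tumor-bearing mice are replicates 4, 5 and 6 and healthy mice are replicates 1, 2 and 3. The day 7 samples lie on 3 physical panels, with tumor-bearing replicate 4 and healthy replicate 1 on panel A, tumor-bearing replicate 5 and healthy replicate 2 on panel B, and tumor-bearing replicate 6 and healthy replicate 3 on panel C.

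Implanted biomaterials draw in neutrophils, monocytes and macrophages as part of the foreign body response, and lymphocytes, fibroblasts and vessels follow. The 4T1 tumor is known for spreading to distant organs and for expanding neutrophils and immature myeloid cells in blood and spleen. Granule protein genes such as Camp and Ela2 mark neutrophil precursors, while S100a8 and S100a9 are abundant in mature neutrophils, and interferon gamma with the IL-12 family carries signals between T cells, natural killer cells and macrophages.

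RNA was measured by TaqMan PCR. A lower quantification cycle (Cq) means more template, and a level here is the log2 of the deposited relative quantity, so a unit is a doubling. Levels of different assays cannot be ranked against each other, since primer efficiency differs. Tumor-bearing samples gave a Cq in 560, 569 and 579 assays and healthy samples in 572, 572 and 587. The means of 569 and 577 differed by -7.67 assays (exact permutation test, two-sided, p = 0.4; 3 against 3 cannot go below 0.1). The median Cq was 21.77 to 22.5 in tumor-bearing and 21.94 to 21.95 in healthy samples. Markers of the labelled infiltrate were measured in all 6 samples, among them Itgam of myeloid cells (0.08 ± 0.21), Fn1 of stroma (0.09 ± 0.22) and Cd4 of T cells (-0.34 ± 0.42). In bulk samples, fewer cells of a type and less RNA per cell cannot be told apart.

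At day 7 no assay separated the conditions after adjustment. Il27 and Ifng, cytokines of the interferon gamma axis, had the smallest p-values and lower means in tumor-bearing implants, while the receptors P2ry1 and Hrh1 led among assays with higher means. The neutrophil granule genes Camp, Ela2 and Prtn3, which passed the threshold at both later days, had day 7 differences within their errors. In the limma model, 0 of 565 tested assays (0%) had an adjusted p under 0.05, and the smallest adjusted p was 0.73, shared by Il27 and Ifng. The third assay in order already had 0.997. An unadjusted p under 0.05 was found for 12 assays (2.12%), 5 with higher (0.885%) and 7 with lower (1.24%) means in tumor-bearing implants, and for 5 and 7 without healthy replicate 2 and tumor-bearing replicate 5 in turn. No other test program was run. Every p below comes from this model unless another test is named, ± after a difference is its standard error, and a difference is tumor-bearing minus healthy on the log2 scale.

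Intervals were narrow for abundant transcripts and wide for rare ones. The median difference over the tested assays was 0.0311, with quartiles at -0.166 and 0.176, and 305 assays had higher and 260 lower means in tumor-bearing implants. The median standard error was 0.357. For 298 assays (52.7%) the 95% interval of the difference lay within 2-fold in either direction. This share differed with abundance. Of 159 assays with a mean Cq under 20, 122 had such an interval, against 164 of 277 between 20 and 25, 12 of 120 between 25 and 30, and 0 of 9 over 30. The median standard error was 0.254 in the most abundant class and 1.11 in the least abundant. Of the 12 assays with a low unadjusted p, 8 had a mean Cq of 25 to 30. Fitted differences passed 2-fold in 10 assays with higher means (1.77%) and in 15 with lower means (2.65%), and 20 of these 25 lay in the same class of Cq.

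**Figure D1:**
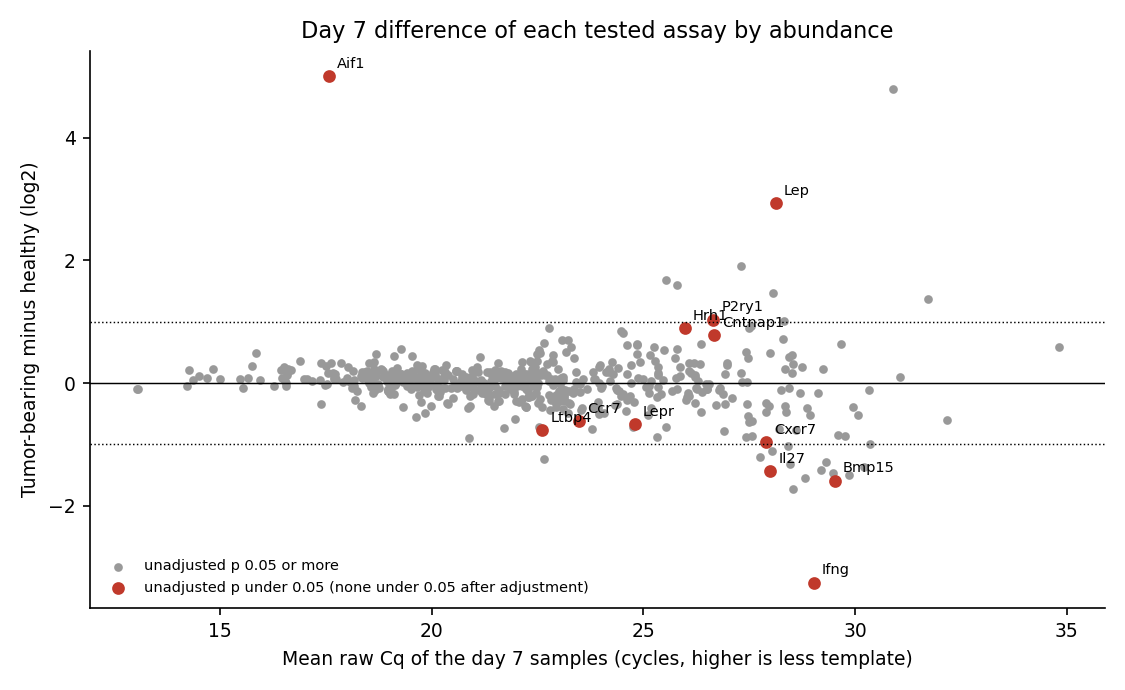
Each of the 565 tested assays is a point, with the mean raw Cq of the day 7 samples in cycles across and the tumor-bearing minus healthy log2 difference upward. Dotted lines mark 2-fold, and the 12 named points have an unadjusted p under 0.05. The cloud widens as Cq increases, and the highest point, Aif1, rests on a reaction described in the text.

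The cytokine genes came first by p-value. Il27 encodes the p28 subunit of interleukin 27, a cytokine that macrophages and dendritic cells release and that acts on T cells. Its level was -10.29, -10.32 and -9.36 in tumor-bearing implants (replicates 4, 5 and 6), against -8.30, -7.93 and -9.43 in healthy implants (replicates 1, 2 and 3). Tumor-bearing replicate 6 lay just above healthy replicate 3, and on the other panels the tumor-bearing implant was lower. The means were -9.99 ± 0.54 and -8.55 ± 0.78 (SD, n = 3 each), a difference of -1.44 ± 0.42 (unadjusted p = 0.002185, adjusted p = 0.73), or 0.369-fold with a 95% interval of 0.203 to 0.671. Without 1 mouse in turn the difference ran from -1.91 to -1.12. Ebi3, whose product pairs with p28, differed by 0.17 ± 0.20, and the receptor gene Il27ra by 0.34 ± 0.24.

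Ifng encodes interferon gamma, which T cells and natural killer cells make and which activates macrophages. Its assay with a 100 bp amplicon gave no Cq in tumor-bearing replicate 4 and levels of -11.75 and -12.81 in replicates 5 and 6, against -9.36, -8.18 and -9.62 in healthy implants. Both tumor-bearing values lay below all 3 healthy ones. The difference was -3.25 ± 0.96 (unadjusted p = 0.002585, adjusted p = 0.73), with the missing sample left out. The assay with a 63 bp amplicon gave -11.08, -7.89 and -9.53 in tumor-bearing implants, against -8.25 and -8.45 in healthy replicates 1 and 3, with no Cq in healthy replicate 2. In this assay the groups overlapped, since tumor-bearing replicate 5 was the highest of all, and the difference was -1.20 ± 0.88 (unadjusted p = 0.187). The assays disagreed on single mice: healthy replicate 2 had the highest level in the first and no Cq in the second. Their differences lay 2.05 apart, the widest gap among 43 genes with more than 1 tested assay. With 1 pair of assays taken for each gene, the median gap was 0.134 and 30 pairs had the same sign. Further assays of a gene were not counted, such as an Alox5 assay of opposite sign (-0.07). The receptor genes were steadier, Ifngr1 at 0.23 ± 0.46 and Ifngr2 at 0.10 ± 0.21.

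Chemokine receptor and chemokine genes were among those with lower means, and Cxcr7 followed Il27 and Ifng in order of p-value. Cxcr7 (now Ackr3), a receptor that scavenges the chemokine CXCL12, had levels of -10.45, -9.15 and -9.36 in tumor-bearing implants, against -9.26, -7.81 and -9.00 in healthy implants. Tumor-bearing replicate 5 lay above healthy replicate 1, and within each panel the tumor-bearing implant was lower. The difference was -0.97 ± 0.33 (unadjusted p = 0.00787), and -0.55 without healthy replicate 2. Ccr7, a receptor with which dendritic cells and lymphocytes reach lymph nodes, had -4.84, -5.01 and -5.34 in tumor-bearing implants, against -4.57, -4.23 and -4.51 in healthy implants. These groups did not overlap. The difference was -0.62 ± 0.29 (unadjusted p = 0.0457), beside -0.64 ± 0.19 at day 14 and -1.18 ± 0.29 at day 21, where it passed the threshold (adjusted p = 0.0437). Ccl5, a chemokine that attracts monocytes and T cells, had -3.30, -3.57 and -3.75 in tumor-bearing implants, against -3.00, -2.64 and -3.22 in healthy implants in its assay with a 71 bp amplicon. All 3 tumor-bearing values lay below the healthy ones in that assay (-0.58 ± 0.32), but not in the assay with a 103 bp amplicon (-0.39 ± 0.35). Of 520 assays with 6 values, 41 (7.88%) had groups that did not overlap, 24 with tumor-bearing implants above (4.62%) and 17 with them below (3.27%).

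Lower means were also seen for genes with other roles. Lepr, the leptin receptor gene, had -5.72, -6.71 and -6.78 in tumor-bearing implants, against -5.44, -5.53 and -6.21 in healthy implants (-0.67 ± 0.27, unadjusted p = 0.0212). Tumor-bearing replicate 4 lay above healthy replicate 3. Ltbp4, which encodes a matrix protein that binds latent TGF-beta, had -3.85, -4.36 and -4.58 in tumor-bearing implants, against -3.53, -3.06 and -3.89 in healthy implants. Its 2 assays differed by -0.77 ± 0.36 (unadjusted p = 0.044) and -0.72 ± 0.37, the second without tumor-bearing replicate 4. Bmp15, a growth factor gene best known from oocytes, gave -12.12 and -11.57 in tumor-bearing replicates 4 and 6, against -10.38, -10.64 and -9.79 in healthy implants, all near 30 cycles. Both tumor-bearing values were the lowest (-1.59 ± 0.70, unadjusted p = 0.0342). Nfatc4, a calcium-responsive transcription factor gene, and Icos, a costimulatory receptor gene of activated T cells, had groups that did not overlap, with differences of -0.44 ± 0.25 and -0.72 ± 0.55. Their unadjusted p was 0.0893 and 0.203.

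Among assays with higher means in tumor-bearing implants, receptors for small signalling molecules stood first. P2ry1, a receptor for ADP, had levels of -7.34, -6.38 and -8.48 in tumor-bearing implants, against -8.58, -7.99 and -8.73 in healthy implants. Tumor-bearing replicate 6 lay below healthy replicate 2, and within each panel the tumor-bearing implant was higher. The difference was 1.03 ± 0.39, or 2.05-fold with a 95% interval of 1.17 to 3.59 (unadjusted p = 0.0145, adjusted p = 0.997). It was 0.51 without tumor-bearing replicate 5 and 1.59 without tumor-bearing replicate 6. Hrh1, the histamine H1 receptor gene, had -6.62, -7.37 and -6.42 in tumor-bearing implants, against -7.15, -8.58 and -7.36 in healthy implants. It too overlapped while being higher within each panel, with a difference of 0.89 ± 0.35 (unadjusted p = 0.0172), and 0.46 without healthy replicate 2. A second Hrh1 assay gave a Cq in only 1 tumor-bearing and 2 healthy samples and was not tested. Adora3, an adenosine receptor gene, had -7.61, -7.17 and -7.15 in tumor-bearing implants, against -7.71, -7.87 and -8.26 in healthy implants, without overlap (0.64 ± 0.35, unadjusted p = 0.0818). Of 9 tested assays for purinergic, histamine and kinin receptors, 7 had higher and 2 lower means, with a median of 0.16, against 0.03 over all tested assays. This list includes P2ry1, Hrh1 and Adora3 and was chosen with earlier results of these data known. Its count and median are therefore no separate evidence for these receptors.

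Further genes with higher means were of macrophages, matrix and nerve. Cntnap1, which encodes a protein of the axon-glia junction, had -7.33, -7.50 and -7.82 in tumor-bearing implants, against -8.22, -8.44 and -8.32 in healthy implants (0.78 ± 0.37, unadjusted p = 0.0485). Hpse, the gene of heparanase, which cuts heparan sulfate in matrix, had -0.15, -0.28 and -0.34 in tumor-bearing implants, against -0.75, -0.48 and -1.23 in healthy implants (0.56 ± 0.28). Cd163, a scavenger receptor gene of macrophages, had -2.87, -3.75 and -4.16 in tumor-bearing implants, against -4.30, -4.97 and -4.22 in healthy implants (0.90 ± 0.49). The unadjusted p was 0.0534 for Hpse and 0.0786 for Cd163. None of these genes overlapped between groups, although the gap for Cd163 was narrow on panel C. These genes were named for low p-values in the same samples, so the lack of overlap is no separate evidence. Over the 520 assays with 6 values, 4.62% had all tumor-bearing implants above the healthy ones. Fcer1g, the common chain of Fc receptors, had a difference of 0.28 ± 0.16, Tnfsf4, the gene of OX40 ligand, 0.93 ± 0.53, and C8g, of complement component 8, 1.01 ± 0.58. Without 1 mouse in turn, the difference ran from 0.53 to 1.19 for Cd163, 0.37 to 0.72 for Hpse, 0.45 to 1.54 for Tnfsf4 and 0.43 to 1.77 for C8g. The lowest values came without tumor-bearing replicate 4, healthy replicate 3, healthy replicate 2 and healthy replicate 1 in that order of genes.

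**Figure D2:**
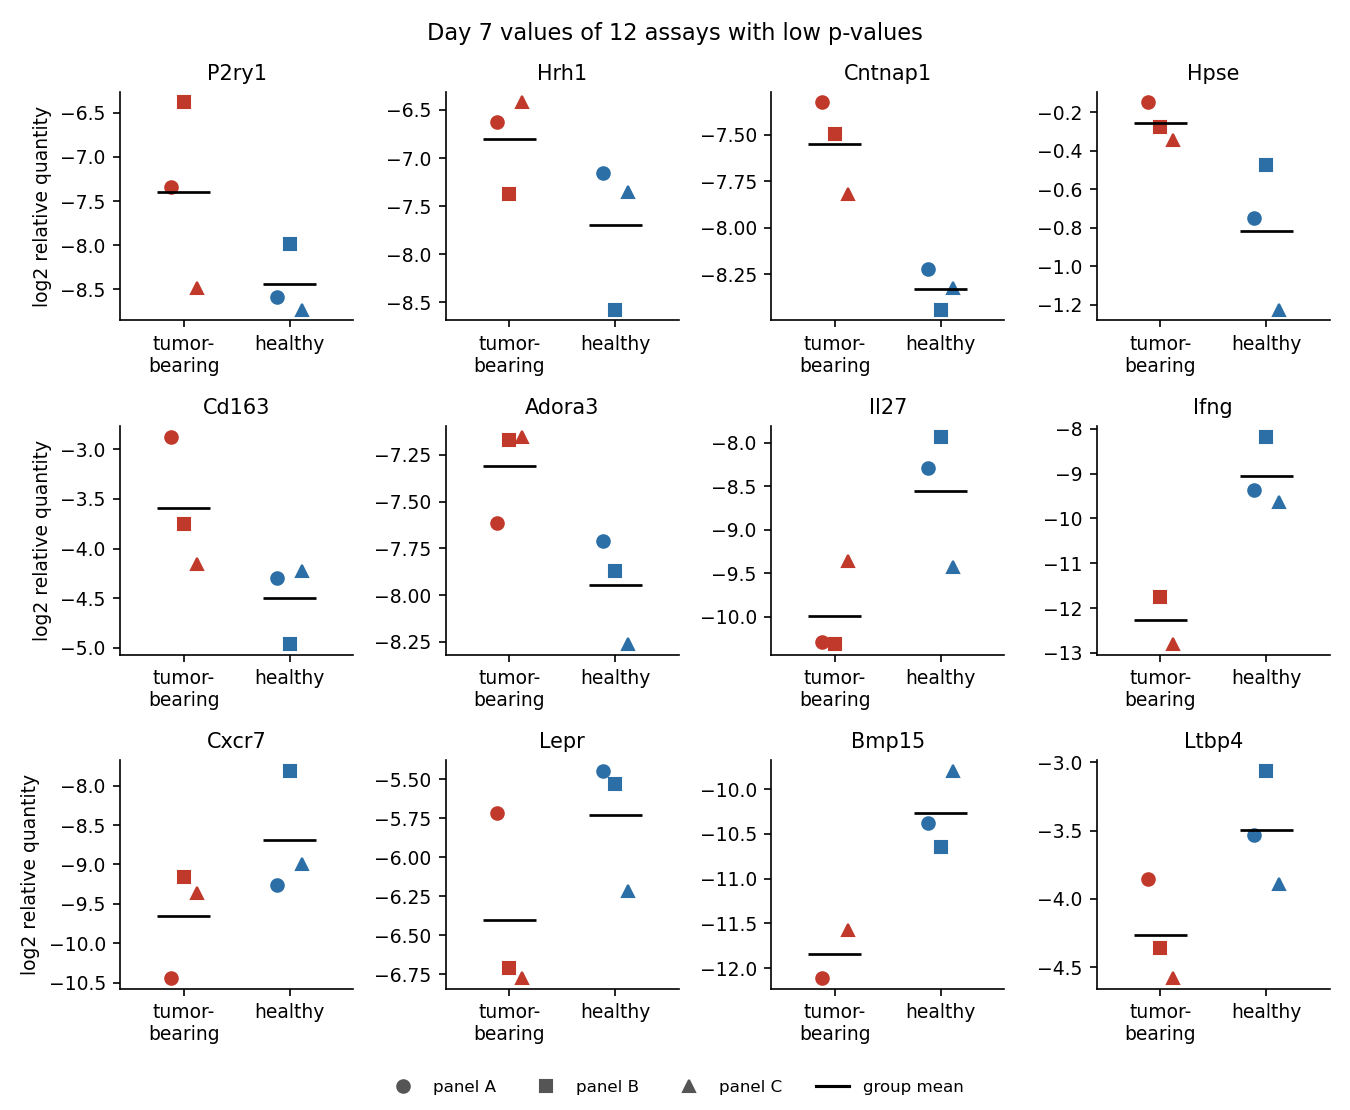
Levels (log2 relative quantity) of 12 assays with low p-values are drawn for each day 7 implant, tumor-bearing left and healthy right, with the panel given by the symbol and the group mean by a bar. Hpse, Cd163 and Adora3 had an unadjusted p over 0.05 (0.0534, 0.0786 and 0.0818). Aif1, Lep and Ccr7, which were under 0.05, are not drawn. Cntnap1, Hpse, Cd163 and Adora3 show no overlap with 3 values a group, while Il27, Cxcr7, P2ry1, Hrh1, Lepr and Ltbp4 overlap, and Ifng and Bmp15 have 2 tumor-bearing values.

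Large differences of 3 assays rested on single or missing reactions. Aif1, a gene of macrophages and microglia, had a level of 14.44 in tumor-bearing replicate 4, against -1.56 and -1.89 in replicates 5 and 6 and -1.57, -0.97 and -1.50 in healthy implants. That reaction was read at a Cq of 4.499, where the median of its group was 20.198. The authors' deposited table lists a 32.2-fold difference for Aif1 at day 7. Without the reaction the difference was -0.40. H2-Q10, a secreted class Ib major histocompatibility gene, had -10.14 and -9.46 in tumor-bearing replicates 5 and 6, against -18.41 and -10.95 in healthy replicates 1 and 3. Its 4.80 ± 2.04 turned on healthy replicate 1, read at a Cq of 36.977. Lep, the leptin gene, had -8.23 and -6.88 in tumor-bearing replicates 4 and 5 and no Cq in replicate 6, against -11.65, -11.59 and -8.24 in healthy implants. The difference of 2.93 ± 1.38 (unadjusted p = 0.0452) leaves out the tumor-bearing implant with the least of the other fat transcripts.

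The fat cell transcripts Adipoq, Cfd and Retn varied more between mice than between conditions. Adipoq, the gene of the fat cell hormone adiponectin, had levels of -2.57, -2.32 and -7.53 in tumor-bearing implants, against -4.75, -6.70 and -3.08 in healthy implants. Tumor-bearing replicate 6 and healthy replicate 2 were lowest, and the within-panel differences were 2.18, 4.38 and -4.45 on panels A, B and C. Cfd, the gene of adipsin, had -1.43, -1.14 and -7.10 in tumor-bearing implants, against -3.51, -4.98 and -2.24 in healthy implants, and Retn, the gene of resistin, had -3.95, -4.42 and -9.52, against -7.88, -10.47 and -4.58 in healthy implants. The epithelial keratin gene Krt8 had -3.79, -5.47 and -9.54 in tumor-bearing implants, against -6.10, -10.43 and -7.09 in healthy implants, with the same pair of implants lowest. Over the 9 fat cell assays with 6 values, the summed relative quantity was 9.59 to 19.3 in tumor-bearing and 8.95 to 13.8 in healthy implants. Of 10 tested assays, 8 had higher and 2 lower means, with a median of 0.27, and of -0.11 without healthy replicate 2. The part of this fat content in the differences of Lep and Lepr was not tested.

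The neutrophil genes were described member by member, since several of them separate the conditions later, while Cybb, Ncf1, Il8ra and Ltb4r1 passed at neither later day. Of 14 tested assays, 0 passed the threshold, 0 had an unadjusted p under 0.05, 11 had higher and 3 lower means in tumor-bearing implants, and the median was 0.33, against 0.03 over all tested assays. It was 0.17 without healthy replicate 3 and 0.60 without healthy replicate 2. S100a9, a subunit of calprotectin, had -0.56, 0.10 and -0.04 in tumor-bearing implants, against -0.80, -0.00 and -1.02 in healthy implants. Healthy replicate 2 lay among the tumor-bearing values. The difference was 0.44 ± 0.59, and both S100a8 assays, for the partner subunit, gave 0.44 ± 0.75 and 0.48 ± 0.72. Fpr1, the receptor for bacterial formyl peptides, had -3.94, -3.30 and -3.52 in tumor-bearing implants, against -4.18, -3.56 and -4.99 in healthy implants, the smallest p of the list (0.66 ± 0.47, unadjusted p = 0.171). Again the groups overlapped through healthy replicate 2.

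Camp, which encodes the cathelicidin precursor of secondary granules, had -9.20, -9.71 and -9.16 in tumor-bearing implants, against -9.30 and -8.33 in healthy replicates 2 and 3 and no Cq in replicate 1. The groups overlapped (-0.48 ± 1.25), and the difference was 0.03 with a fixed panel block and 3.57 where missing reactions took the largest Cq. Ela2 (now Elane), neutrophil elastase, had -11.28, -14.56 and -15.01 in tumor-bearing implants, against -12.03 and -14.18 in healthy replicates 2 and 3 (-0.60 ± 1.14), and its difference became 2.16 with that filling. Prtn3, proteinase 3, gave values in 2 implants of each condition (0.63 ± 1.16). Ltf, lactoferrin, differed by 0.85 ± 0.88, and by 0.01 without tumor-bearing replicate 4. The difference was for Pglyrp1, a peptidoglycan recognition protein of granules, 0.35 ± 0.37, for Il8rb (now Cxcr2), the main neutrophil chemokine receptor of the mouse, 0.31 ± 0.39, and for Il8ra (now Cxcr1) -0.30 ± 0.35. Ltb4r1, a leukotriene B4 receptor gene, gave 0.18 ± 0.36, and the oxidase subunit genes Ncf1 and Cybb 0.10 ± 0.22 and 0.01 ± 0.19. Of the 11 assays with 6 values, 6 were higher in the tumor-bearing implant on all 3 panels, against 14.6% of the 520 assays, and 0 had groups that did not overlap. Both S100a8 assays are among these 6, and all members were read in the same mice. The neutrophil list was chosen with earlier results of these data known. Its counts and median are therefore no separate evidence for a day 7 difference.

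The day 7 effect was then tested against the later days in the same model. Later, 14 of 588 assays (2.38%) passed at day 14 and 7 of 573 (1.22%) at day 21. At day 14, panel D held only healthy and panel G only tumor-bearing implants. For the mice on these panels, condition and panel cannot be told apart. The day 14 minus day 7 difference of Ela2 was 4.31 ± 1.37, and 6.62 ± 1.18 with a fixed panel block. Camp, with -0.48 ± 1.25 at day 7, differed between conditions by 4.81 ± 0.73 on day 14 and by 6.59 ± 1.11 on day 21. Its day 14 minus day 7 difference of effects was 5.29 ± 1.45 (unadjusted p = 0.00142, adjusted p = 0.268) and the day 21 minus day 7 difference 7.07 ± 1.67 (unadjusted p = 0.00035, adjusted p = 0.196). With missing reactions at the largest Cq these were 2.45 and 3.02 (adjusted p = 1 for both). Ela2 differed by 6.04 ± 1.52 (adjusted p = 0.232) and Prtn3 by 5.12 ± 1.58 (adjusted p = 0.953) between days 21 and 7, and by 3.28 and 9.29 with that filling (adjusted p = 1 for both). In all, 0 of 564 assays (0%) passed for day 14 minus day 7, with 21 (3.72%) at an unadjusted p under 0.05, and 0 of 560 (0%) for day 21 minus day 7, with 22 (3.93%). When the panel was fitted as a fixed block, Ela2 passed in the first (adjusted p = 0.0497, and up to 1 over the 12 alternatives) and Ela2 and Camp in the second (adjusted p = 0.0357 and 0.0479, and up to 1 for each). Both tests use the same day 7 samples. Among the smallest p-values for day 14 minus day 7 were also Il27 (1.86 ± 0.50) and Hrh1 (-1.58 ± 0.42), each with an adjusted p of 0.268. Their day 14 differences were 0.42 ± 0.27 and -0.69 ± 0.23, opposite in sign to those of day 7.

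**Figure D3:**
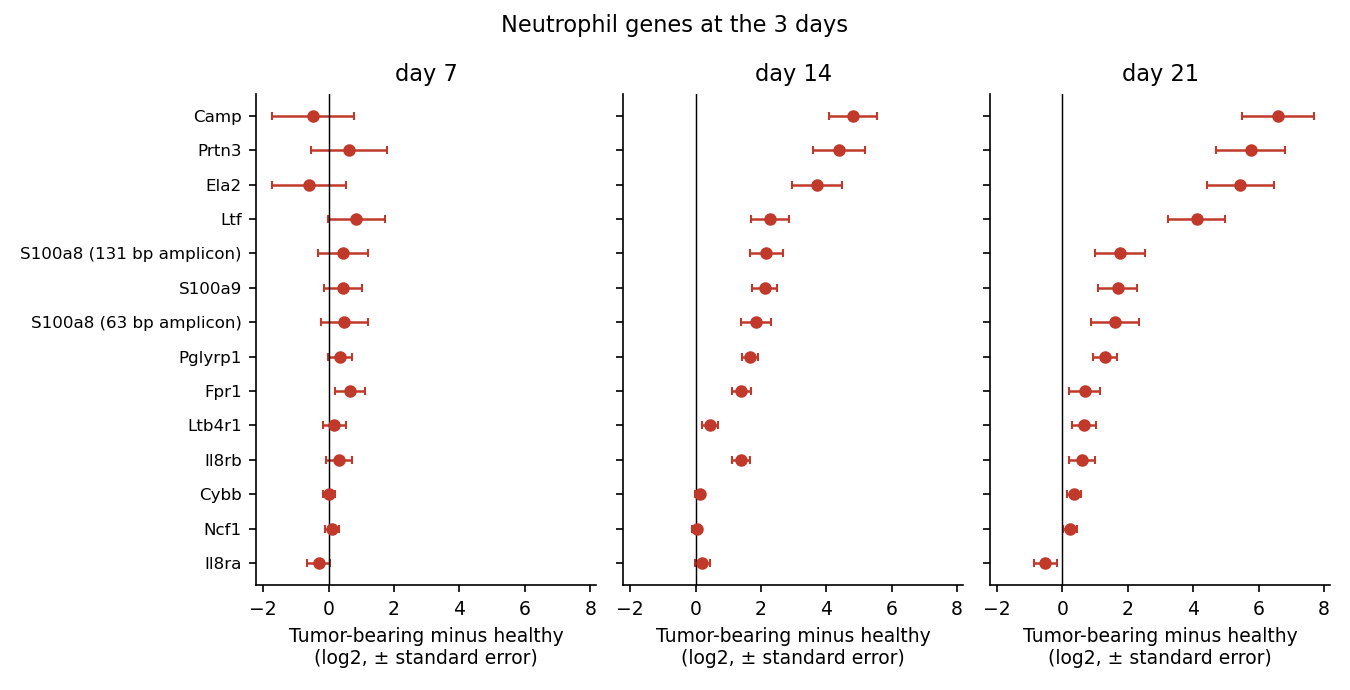
Tumor-bearing minus healthy log2 differences of the 14 tested neutrophil assays are drawn at days 7, 14 and 21, with bars of ± 1 standard error. At day 7 the differences run from -0.60 to 0.85, while Camp reaches 4.81 at day 14 and 6.59 at day 21.

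In the interferon gamma and IL-12 family list, 19 of 28 tested assays had lower and 9 higher means in tumor-bearing implants, with a median of -0.17, against 0.03 over all tested assays. The sign of this median rested on healthy replicate 2. That implant stood apart from the other 5. Cxcl9, a chemokine gene that interferon gamma turns on, had -3.62, -4.52 and -5.48 in tumor-bearing implants, against -4.26, -0.93 and -4.72 in healthy implants. Its difference was -1.24 ± 0.88, and -0.08 without healthy replicate 2. The related chemokine genes had their highest value in the same implant, Cxcl10 at -1.04 where the other 5 lay between -4.25 and -2.83, and Cxcl11 at -3.83 where they lay between -8.67 and -5.87. The mean deviation of the list from the 6-sample mean was 0.05, -0.04 and -0.38 in tumor-bearing implants, against -0.19, 0.64 and -0.08 in healthy implants. Without healthy replicate 2 the median difference of the list was 0.04.

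Other inflammatory lists had the same high implant. For classical inflammatory activation, 15 of 23 assays had lower means with a median of -0.10, and the median was 0.15 without healthy replicate 2. For lymphocyte-attracting chemokines, 11 of 15 assays had lower means (median -0.39), and the median was -0.06 without it. For monocyte-attracting CC chemokines, 8 of 11 had lower means (median -0.29), and the median was -0.01 without it. Irf7, a regulator of type I interferon, likewise had -1.73, -2.95 and -3.13 in tumor-bearing implants, against -1.65, -0.81 and -2.69 in healthy implants (-0.89 ± 0.57). The T cell markers did not turn on that implant: 5 of 6 had lower means, with a median of -0.44, of -0.36 without it, of -0.20 without healthy replicate 3 and of -0.16 without tumor-bearing replicate 6. Their mean deviation was -0.11, 0.07 and -0.50 in tumor-bearing implants, against -0.11, 0.13 and 0.52 in healthy implants. Their summed relative quantity, in which abundant assays weigh most, was not lower. It was 1.7, 1.7 and 1.59 in tumor-bearing implants, against 1.38, 1.36 and 1.64 in healthy implants. None of these list members passed the threshold.

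**Figure D4:**
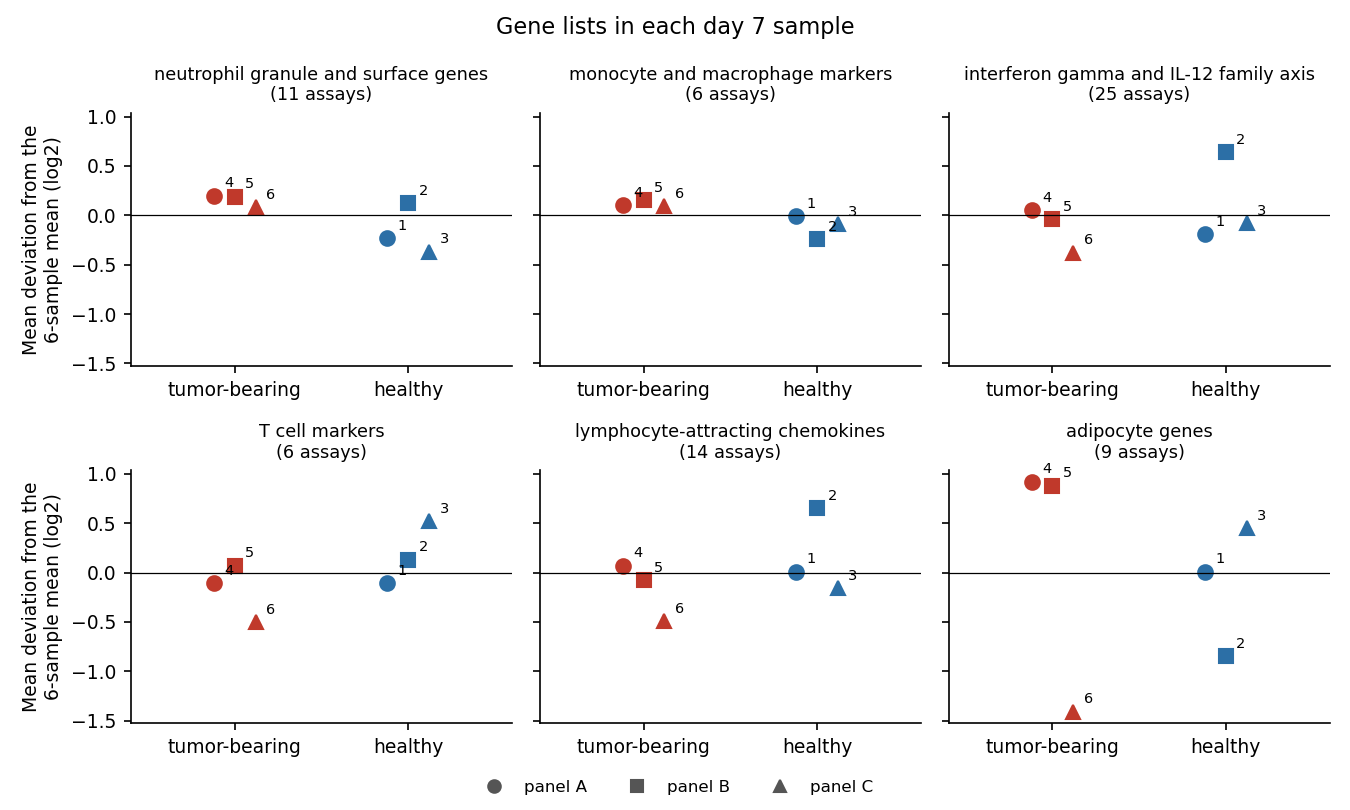
For 6 gene lists, the mean log2 deviation of the list's assays from the mean of the 6 day 7 samples is drawn for each implant, tumor-bearing left and healthy right, with the replicate number beside the point. Healthy replicate 2 is highest for the interferon gamma axis (0.64) and lymphocyte-attracting chemokines (0.65), and tumor-bearing replicate 6 is lowest for fat cell genes (-1.41).

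Of 6 monocyte and macrophage markers, 5 had higher means with a median of 0.12, the largest being the 0.90 ± 0.49 of Cd163, with Ccr2, which brings monocytes out of the marrow, at 0.15 ± 0.37 and Cx3cr1, of resident and patrolling cells, at 0.23 ± 0.20. Genes of alternative activation had a median of 0.07 over 12 assays, with the mannose receptor gene Mrc1 at 0.33 ± 0.39 and Ccl22, a chemokine for regulatory T cells, at -0.39 ± 0.27. Complement genes had 11 higher and 9 lower means (median 0.19). Of 19 complement assays with 6 values, 3 had all tumor-bearing implants above the healthy ones. In 1 assay, C2 (-0.38 ± 0.26), they lay below. Over the 520 assays with 6 values these shares were 4.62% and 3.27%. Eicosanoid genes had a median of 0.12 over 14 assays, with Alox5ap, the activator of 5-lipoxygenase, at 0.15 ± 0.20. Toll-like receptor and NF-kappaB genes had 11 higher and 11 lower means, Tlr7, a sensor of RNA, at 0.16 ± 0.19 and Tlr6 at 0.13 ± 0.16. IL-1 family and inflammasome genes had 10 higher and 8 lower means, the alarmin gene Il33 at 0.18 ± 0.23 with groups that did not overlap. Growth factors and chemokines for neutrophils had a median of 0.08 over 9 assays, and both Csf2 assays, for the growth factor GM-CSF, gave -0.63 ± 0.53 and -0.76 ± 0.81.

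Among 21 lists with at least 5 tested assays and a median other than 0.00, the median changed sign without some 1 mouse in 8. Dendritic cell and antigen presentation genes had 6 of 8 lower means (median -0.19), and chemokine receptors 17 of 25 (median -0.09). Immune checkpoint and suppression genes had 6 of 8 lower means (median -0.19), among them Foxp3, of regulatory T cells, at -0.62 ± 0.63 and Nos2, the inducible nitric oxide synthase, at -0.48 ± 0.54. Mast cell, basophil and eosinophil genes had 4 higher and 4 lower means (median -0.03), with the eosinophil chemokine gene Ccl11 at -0.31 ± 0.26 and the mast cell receptor gene Fcer1a at 0.42 ± 0.62. Endothelial and adhesion genes had 4 of 5 higher means (median 0.17), the integrin gene Itgb2 at 0.21 ± 0.15 and the selectin gene Selp at -0.45 ± 0.34. Type I interferon genes had 3 higher and 3 lower means (median 0.00), matrix genes 3 higher and 5 lower (median -0.05), and epithelial genes 1 higher and 2 lower (median -0.06). Housekeeping genes had 15 of 20 higher means (median 0.07). The only cytotoxic cell gene tested, Fasl, gave -0.16 ± 0.56, and the B cell list had 2 assays, Cr2 at -1.51 ± 0.93 and Tnfsf13b at -0.19 ± 0.19.

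Of all assays, 4 were read in 3 implants of a condition and in at most 1 of the other. Serpina1a, an antiprotease gene, was read in 0 of 3 tumor-bearing implants and in 3 of 3 healthy ones, with healthy Cq of 28.246, 28.639 and 27.196. Cd40lg, the T cell ligand of CD40, an assay of Csf3, the growth factor for neutrophils, and an assay of Apoa1, an apolipoprotein, were each read in 1 of 3 tumor-bearing implants and in 3 of 3 healthy ones. Their other assays did not share this pattern: that of Csf3 was read in 2 of 3 tumor-bearing and 3 of 3 healthy implants (a difference of 0.31), and that of Apoa1 in 2 of 3 tumor-bearing and 2 of 3 healthy implants (a difference of -1.11). The Cq values of these 4 assays ran from 25.291 to 30.644, and 0 assays had the opposite pattern. Serpina1a was read in 4 of 8 implants of either condition at day 14 and in 2 of 3 of either at day 21.

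The 3 panels gave 3 separate pairs of mice, and their differences were nearly uncorrelated. Over 520 assays, the Spearman correlation of the tumor-bearing minus healthy differences was 0.12 between panels A and B, -0.14 between A and C and 0.02 between B and C. These correlations are descriptions across assays, which share samples and reference genes. In 25.6% of assays all 3 panels had the same sign, 76 higher (14.6%) and 57 lower (11%). Sample profiles correlated at 0.978 to 0.989 among tumor-bearing implants and 0.975 to 0.99 among healthy implants, and at 0.975 to 0.988 between conditions on the same panel. These ranges overlap.

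**Figure D5:**
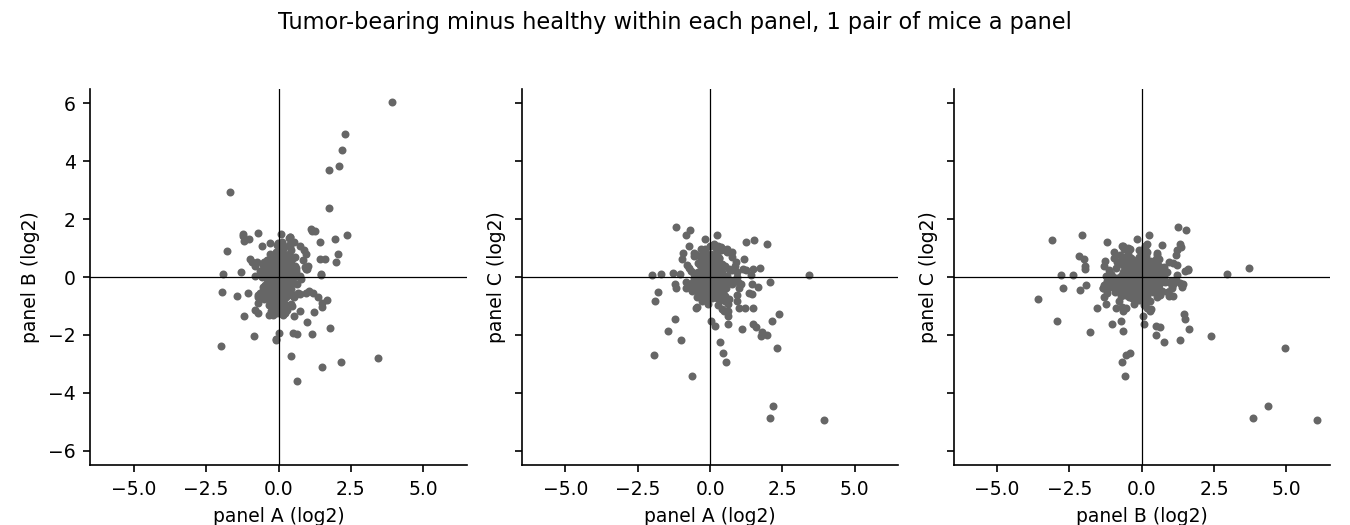
Each point is an assay with 6 values, and the axes give its tumor-bearing minus healthy log2 difference on a pair of panels, each panel holding 1 mouse of each condition. The clouds show no common slope, with Spearman correlations of 0.12, -0.14 and 0.02, and 1 assay, Aif1, lies outside the axes.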

How the data were processed

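Cells of the implant were not separated, and RNA of the whole scaffold was reverse transcribed and measured on TaqMan OpenArray panels of mouse inflammation genes, per the labels' protocols. Per the file headers, the authors deposited raw quantification cycles (Cq, handled as a score) and normalized values, a ratio on a linear scale. These deposited ratios equal 2 to the power of minus the Cq difference from the mean of 5 reference genes of the panel, as found here by matching all 28 samples. The authors' deposited table of fold changes gives no errors. The Cq software is not given in the sources used here.

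Log2 ratios were fitted with limma 3.58.1 (statmod 1.5.0, R 4.3.3): 1 mean per group over all 28 samples, eBayes with a constant prior, and the panel as a random block (correlation 0.0535). P-values were adjusted by Benjamini-Hochberg over all tested assays, with a threshold of 0.05. Reactions without a Cq stayed missing. An assay was tested where a share of 0.5 of the samples of a group, which 609 assays met, and at least 2 samples of each condition had a value. The script was tested on simulated data. Detection used SciPy 1.17.1. Symbols follow the files, and 618 assays matched 1 gene in RefSeq.

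Members and gene lists were chosen with earlier results of these data known. Named genes are the 12 smallest p-values per direction, the 2 smallest of each list, all tested neutrophil genes, the 3 smallest for each difference between days, all further assays of these genes, assays detected in 3 samples of a condition and at most 1 of the other, and the 5 reactions furthest from their group median. Itgam, Fn1, Cd4, Ebi3, Il27ra, Ifngr1, Ifngr2, Cxcl10, Cxcl11 and Ccr2 are not covered by the rule; these were chosen after seeing their values. No label names shared litters or cultures, so p-values measure the spread between mice. That spread is pooled within groups over all 28 samples, so the day 7 errors also carry the spread of the day 14 and day 21 mice. Alternatives changed the panel block, normalization, missing values, filters, the prior, the samples fitted and each day 7 mouse in turn. The skeletal muscle list had no assay on the panel.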

Additional observations from a re-analysis of the deposited data

How the results depend on the processing

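The count of 0 assays past the threshold at day 7 was the same under all 17 alternatives, but the margin varied. The smallest adjusted p was 0.73 in the reported model. It lay only just above 0.05 where each missing reaction took the largest Cq (39.699). It was 0.101 without healthy replicate 3 (Il27) and 0.157 without tumor-bearing replicate 6 (P2ry1). Other settings raised it, to 0.999 without healthy replicate 2 or tumor-bearing replicate 5. The count at an unadjusted p under 0.05 was 12 in the reported model and 20 with missing reactions at the largest Cq. This count was 20 with only the day 7 samples fitted, and 35 with these and the panel as a fixed block. Without 1 mouse it was 5 to 14, lowest without healthy replicate 2 and 7 without tumor-bearing replicate 5. For day 14 minus day 7, a fixed panel block gave 1 assay (Ela2, adjusted p = 0.0497, with 1 as the highest over 12 alternatives) and missing reactions at the largest Cq gave 1 (Itgb2l, adjusted p = 0.0362, tested under that setting alone), and 0 did without any 1 mouse. For day 21 minus day 7, a fixed panel block gave 2 (Ela2, 6.65, adjusted p = 0.0357; Camp, 6.56, adjusted p = 0.0479; up to 1 over 12 alternatives) and 0 to 1 without 1 mouse (Ela2, 7.12, adjusted p = 0.0462, without tumor-bearing replicate 4). The cause was not tested. Of 81 named tested assays, 60 kept their direction under every alternative run. Alternatives that changed only the prior or a filter, or dropped the panel block, can hardly move a fitted difference. They reversed 0 assays and say little about direction. With missing reactions at the largest Cq the day 7 difference became -1.67 for Lep, 3.57 for Camp, 2.16 for Ela2, 2.34 for Ccl28, 2.19 for Cr2, -3.32 for Csf3 and 3.03 for the 63 bp assay of Ifng, and the day 14 minus day 7 difference of Hrh1 became 0.60. Camp was 0.03 with the panel as a fixed block, Cybb -0.05 with Cq centred on each sample's median and -0.04 with housekeeping genes, and Aif1 -0.40 without reactions over 4 cycles away from the group median. Without 1 mouse, differences ran from -0.41 to 7.77 for Aif1, -0.31 to 2.39 for Adipoq, -0.64 to 2.27 for Cfd, -1.68 to 0.10 for Ela2, -0.71 to 1.06 for Csf3, -1.09 to 0.03 for Nos2, -1.49 to 0.49 for the second Ccr8 assay, -0.60 to 0.18 for Fasl, -0.67 to 0.05 for Il8ra, -0.03 to 0.41 for Ltb4r1, -0.26 to 0.11 for Muc1, -0.03 to 0.17 for Ifnar1, -0.07 to 0.12 for Cybb, -0.04 to 0.16 for a Gusb assay, and -0.02 to 0.20 and -0.18 to 0.14 for Alox5 assays. The share of assays with the same sign on all 3 panels was 25.6%, 23.3% with median-centred Cq and 26.3% for 399 assays with Cq below 25. Replicate numbers run on through the groups and pair no mice, and the fixed panel block of the 6 day 7 samples sets the mice of a panel against each other (0 past the threshold, smallest adjusted p 0.385). With 3 mice a condition, the number of mice and Cq above 25 limit the precision.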
